A study of Mus musculus with 8 samples.

Results

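Crypt base stem cells of the mouse small intestine are recognised by a set of marker genes, and 10 of them are described here: the receptors Lgr5, Rgmb and Tnfrsf19, the other membrane proteins Prom1, Slc12a2 and Nrn1, the secreted proteins Olfm4, Smoc2 and Igfbp4, and the transcription factor Ascl2. They were found by symbol in the deposited tables of expected counts and of TPM, a unit scaled by transcript length and library size, which hold 55416 genes. All 10 were among the 14063 genes with enough counts to be tested. RNA was sequenced from small intestinal organoids, which are cultures of intestinal epithelial cells grown in a gel with a commercial medium. The groups were organoids labelled day 7 that had received 6 Gy of X-ray, unirradiated controls at day 7, irradiated organoids at day 4 and controls of that day, with 2 libraries in each. All 8 libraries share the strain (C57BL/6, mice of 4 to 8 weeks) and the genotype, which is Rosa26-rtTA Tg/Tg together with Col1A1-TetO-OSKM Tg/Tg, a doxycycline-inducible transgene for the reprogramming factors Oct4, Sox2, Klf4 and Myc. The labels do not say whether the transgene was switched on, from when the days were counted, or whether the 2 libraries of a group came from separate cultures or mice. The p-values therefore measure only the spread between these libraries, which may be technical.

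Crypt base columnar stem cells lie between Paneth cells at the bottom of the crypt, divide continuously and replace the intestinal lining. Wnt signals maintain them, and R-spondins strengthen these signals by binding Lgr5 and its relatives, which keeps the ubiquitin ligases Rnf43 and Znrf3 from removing Wnt receptors. Ascl2 is a Wnt-responsive transcription factor of the same cells. The markers are not equally specific: Prom1 and Slc12a2 extend into the dividing progenitors above the stem cells, while Lgr5 and Olfm4 are the markers most often used for the stem cells themselves.

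RefSeq promoter sequences (build GRCm38.p6, 250 bases before to 50 bases after a gene start) were at hand for 6 of the 10 genes. They were searched on both strands for CTTTG followed by AA, by AT, by TA or by TT, letters bound by the Wnt effectors TCF and LEF, and for CAGCTG, an E-box of the kind bound by basic helix-loop-helix factors such as Ascl2. The first set occurred in 16.9% and the second in 16.3% of 32851 mouse promoters of this length. Both start sites of Tnfrsf19, the marker that was higher after irradiation at day 4, are shown beside those of Olfm4, which was lower at both days, and of Ascl2. Matching letters are in capitals.
Tnfrsf19, start site 1, chr14:61046806-61047105, minus strand: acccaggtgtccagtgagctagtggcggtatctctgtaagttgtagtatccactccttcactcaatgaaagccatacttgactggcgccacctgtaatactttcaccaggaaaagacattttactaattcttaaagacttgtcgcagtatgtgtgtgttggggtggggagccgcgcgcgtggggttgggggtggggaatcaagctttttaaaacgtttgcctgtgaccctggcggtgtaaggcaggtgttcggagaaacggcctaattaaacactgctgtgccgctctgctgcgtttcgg
Tnfrsf19, start site 2, chr14:61037938-61038237, minus strand: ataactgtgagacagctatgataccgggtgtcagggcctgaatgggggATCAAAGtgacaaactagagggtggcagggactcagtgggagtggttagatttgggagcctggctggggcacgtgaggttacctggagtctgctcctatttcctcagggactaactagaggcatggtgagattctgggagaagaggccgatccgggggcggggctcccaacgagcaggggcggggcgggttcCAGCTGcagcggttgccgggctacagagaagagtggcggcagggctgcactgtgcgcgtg
Olfm4, chr14:80000052-80000351, plus strand: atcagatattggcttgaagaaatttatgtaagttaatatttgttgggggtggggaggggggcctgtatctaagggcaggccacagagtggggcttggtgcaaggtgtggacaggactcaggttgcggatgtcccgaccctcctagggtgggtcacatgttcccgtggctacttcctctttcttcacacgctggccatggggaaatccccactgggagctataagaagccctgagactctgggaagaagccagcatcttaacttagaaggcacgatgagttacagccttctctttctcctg
Ascl2, chr7:142969215-142969514, minus strand: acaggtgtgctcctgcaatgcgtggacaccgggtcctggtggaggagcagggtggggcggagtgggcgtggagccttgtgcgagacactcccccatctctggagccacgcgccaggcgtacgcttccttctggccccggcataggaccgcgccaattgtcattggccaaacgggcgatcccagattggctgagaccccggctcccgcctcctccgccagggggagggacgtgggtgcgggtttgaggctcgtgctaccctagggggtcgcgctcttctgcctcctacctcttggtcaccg
Start site 2 of Tnfrsf19 held ATCAAAG, the reverse complement of CTTTGAT, beginning at position -202 from the gene start, and CAGCTG beginning at position -10. The start sites found for Olfm4, Ascl2, Rgmb, Igfbp4 and Prom1 held neither set of letters, which says only that these letters are absent from these windows.

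Libraries held between 7541764 and 16054269 expected counts, so that 1 count stood for 0.061 to 0.12 CPM (counts scaled to the library's total, here with edgeR's TMM factors). Mitochondrial transcripts took 14% and 12.9% of the counts in irradiated organoids at day 7, against 16% and 16.1% in controls, and 20.3% and 27.6% in irradiated organoids at day 4, against 20.7% and 16.2% in controls. Irradiated organoids of day 4, replicate 2, held the highest share. The summed CPM of 8 epithelial genes was 5207 to 5347 in irradiated organoids at day 7, against 3917 to 3950 in controls, and 5721 to 6875 in irradiated organoids at day 4, against 3960 to 3969 in controls. Of the 8, 3 were called higher at day 7, and 4 higher (Krt8, Krt18, Krt19 and Vil1) and 2 lower (Epcam and Cdx2) at day 4. The day 7 count became 0 on TPM values and without control day 7 replicate 1 or 2 or irradiated day 7 replicate 2, 2 without irradiated day 7 replicate 1 and 5 without either irradiated library of day 4. Epcam itself lay between 678 and 1059 CPM. The summed CPM of 8 immune, 8 mesenchymal and 6 endothelial marker genes did not exceed 10.9, 3.54 and 6.32 in any library. Adgre1, Cdh5 and Kdr had 0 counts throughout. Over the 8 libraries Itgam (immune) had 277 counts, Egfl7 (endothelial) 141.8 and Pdgfrb (mesenchymal) 131. Of 3 endothelial genes tested, Tek was called higher at day 4 (log2 fold change 3.58, edgeR adjusted p = 0.00422) and Egfl7 lower (-2.21, adjusted p = 0.0147).

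The markers moved apart after irradiation. At day 7, 5 of the 10 were lower in irradiated than in control organoids and none was higher; at day 4, 7 were lower and Tnfrsf19 was higher. Calls rest on edgeR's quasi-likelihood test with a Benjamini-Hochberg adjusted p under 0.05 over all 14063 genes, and the share of all genes called was 8.65% at day 7 and 36.5% at day 4. Genes called lower made up 3.95% at day 7 and 16.5% at day 4, and genes called higher 4.70% and 20.0%. Lgr5, Olfm4, Rgmb, Slc12a2 and Nrn1 were the 5 genes lower at both days. Of the 10 genes, 2 were higher at day 7 at an unadjusted p under 0.05 (Ascl2 and Tnfrsf19), and DESeq2 called 0 higher there. The median log2 fold change of the 10 was -0.31 at day 7 and -0.53 at day 4, against 0.00 for all genes at either day. The CPM of irradiated and control libraries did not overlap for 10 of the 10 genes at day 7 and for 9 at day 4, while 65.9% and 65.2% of all genes did not overlap. On log2(TPM + 1) values, tested with limma, the median gene moved by 0.12 at day 7 and by -0.17 at day 4, and of the genes called there 81.7% were higher at day 7 and 40.0% at day 4, against 54.4% and 54.7% with edgeR. Relative to those shifts each of the 10 markers had the same sign as with edgeR at both days, Igfbp4 at day 4 by only 0.006. The limma test was of the unshifted values. Of the 5 calls at day 7, it lost those of Olfm4, Rgmb and Slc12a2 (adjusted p = 0.0555, 0.548 and 0.509). In these bulk samples, fewer cells of a type and less RNA per cell cannot be told apart.

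**Figure D1:**
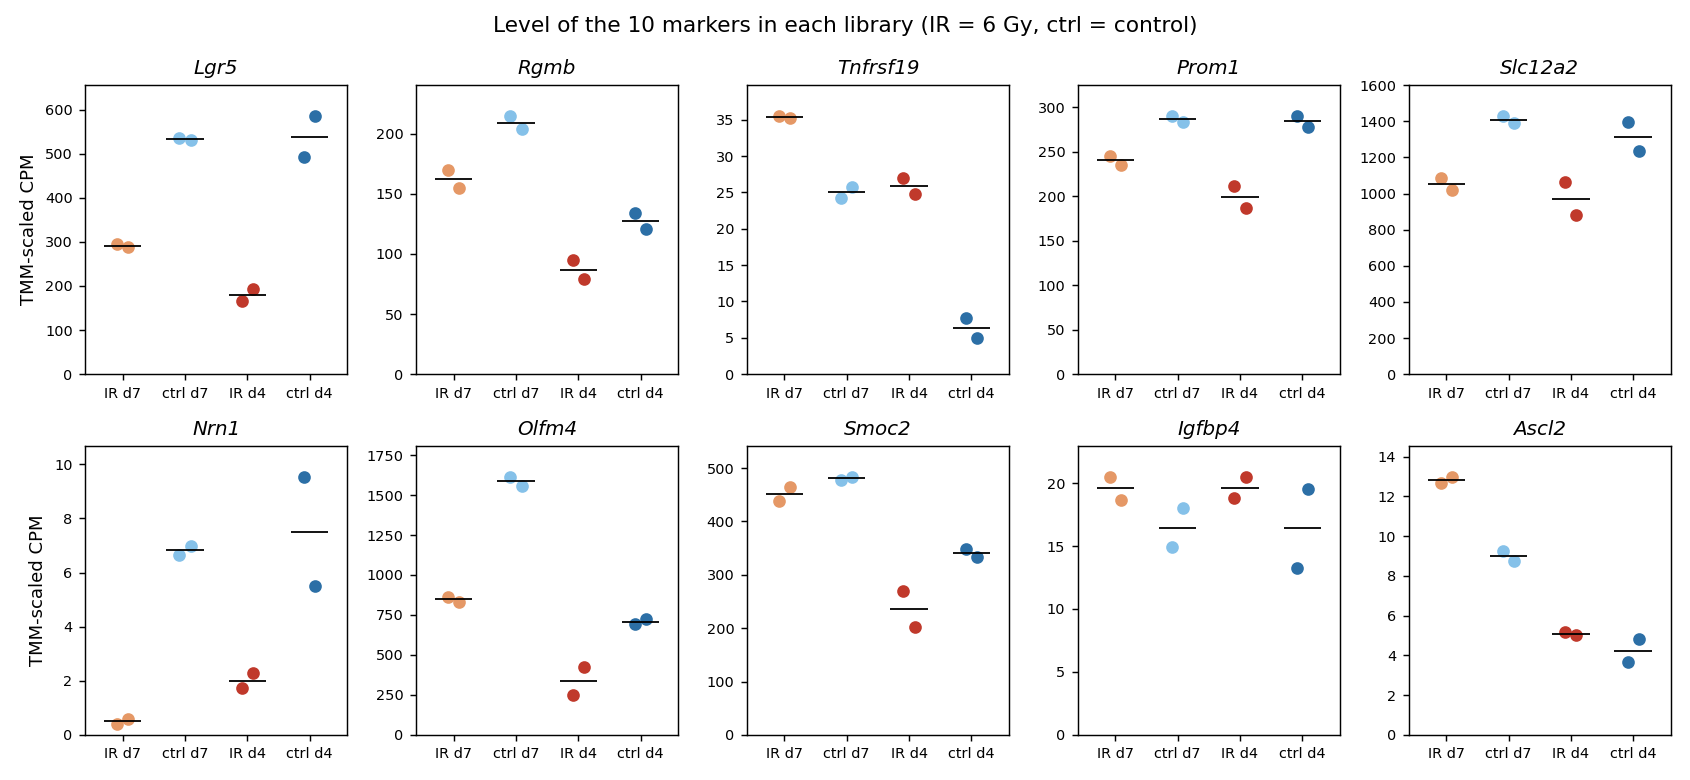
TMM-scaled CPM of each marker (y axis, from 0, a scale of its own per gene) in the 2 libraries of each group (points; the line is their mean), with irradiated (IR) left of control (ctrl) at day 7 (d7) and day 4 (d4). Lgr5, Nrn1 and Olfm4 show both irradiated pairs below both control pairs of the same day, and Tnfrsf19 shows both above.

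Lgr5 (ENSMUSG00000020140), the R-spondin receptor, had 294 and 289 CPM in irradiated organoids at day 7, against 537 and 532 CPM in controls. Its level at day 4 was 165 and 193 CPM in irradiated organoids, against 492 and 586 CPM in controls. Every irradiated library lay below every control library of either day, and the lowest levels were those of irradiated organoids at day 4. The log2 fold change was -0.87 (SE 0.105, edgeR adjusted p = 0.00159) at day 7 and -1.59 (SE 0.107, adjusted p = 5.42e-06) at day 4, a 1.83-fold and a 3.01-fold lower level. The call at day 7 was lost without irradiated day 7 replicate 2 (adjusted p = 0.0574), and the call at day 4 was kept without any single library.

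Rgmb (ENSMUSG00000048027), a membrane-anchored co-receptor for bone morphogenetic proteins, changed less. Its level was 170.2 and 155 CPM in irradiated organoids at day 7, against 215 and 204 CPM in controls. At day 4 it was 94.7 and 79.3 CPM in irradiated organoids, against 134 and 121 CPM in controls. Irradiated libraries lay below the controls of their own day, but those of day 7 lay above the controls of day 4. The log2 fold change was -0.37 (SE 0.1005, edgeR adjusted p = 0.0498) at day 7 and -0.55 (SE 0.1025, adjusted p = 0.00230) at day 4. The call at day 7 was lost without any of the 4 libraries of that day (adjusted p = 0.178 to 0.383), with DESeq2's test and with DESeq2's size factors in edgeR, and both calls were lost on log2(TPM + 1) values (adjusted p = 0.548 at day 7 and 0.0987 at day 4).

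Tnfrsf19 (ENSMUSG00000060548), also called Troy, is a Wnt-induced receptor of the tumour necrosis factor family that dampens Wnt signalling in intestinal stem cells, and it went the other way. Irradiated organoids at day 7 had 35.5 and 35.25 CPM, against 24.3 and 25.75 CPM in controls. Irradiated organoids at day 4 had 27.0 and 24.8 CPM, against 7.67 and 4.998 CPM in controls. The control libraries of day 4 stood far below the other 6 libraries. At day 4 the gene rose 4.16-fold (log2 fold change 2.06, SE 0.179, edgeR adjusted p = 2.52e-05), and it was called without each library in turn. At day 7 the log2 fold change was 0.50 (95% interval 0.15 to 0.85, adjusted p = 0.0784), which did not pass the threshold. It did pass without a count filter and with only the groups compared. Leaving out control day 4 replicate 1 or 2, or irradiated day 4 replicate 1 or 2, also gave a call.

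Prom1 (ENSMUSG00000029086), the membrane glycoprotein CD133 of stem and progenitor cells, had 245 and 235 CPM in irradiated organoids at day 7, against 289.7 and 284 CPM in controls. Day 4 gave 211 and 186 CPM in irradiated organoids, against 290.3 and 278 CPM in controls. Controls of both days lay within 278 to 290.3 CPM, and each irradiated library lay below them. The gene fell by 0.52 on the log2 scale at day 4 (SE 0.0837, edgeR adjusted p = 0.00102). At day 7 the log2 fold change was -0.26 (95% interval -0.44 to -0.07, adjusted p = 0.0867). That value was called with only the groups compared, and without irradiated day 4 replicate 1 or replicate 2.

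Slc12a2 (ENSMUSG00000024597) encodes NKCC1, the sodium, potassium and chloride cotransporter of the basolateral membrane. It had 1088 and 1022 CPM in irradiated organoids at day 7, against 1430 and 1389 CPM in controls. On day 4 the values were 1065 and 879 CPM in irradiated organoids, against 1395 and 1233 CPM in controls. The irradiated libraries of both days lay below the control libraries of both days, by similar amounts. Its log2 fold change was -0.42 (SE 0.112, edgeR adjusted p = 0.0461) at day 7 and -0.43 (SE 0.112, adjusted p = 0.0124) at day 4. Leaving out any library of day 7 ended the call at that day (log2 fold change -0.44 to -0.33). The call at day 4 was lost without control day 4 replicate 1 (log2 fold change -0.34). It was also lost with only the groups compared and on log2(TPM + 1) values with no filter.

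Nrn1 (ENSMUSG00000039114) encodes neuritin, a small membrane-anchored protein named for its effect on neurites, and had few counts. It had 0.408 and 0.602 CPM in irradiated organoids at day 7, which were 4 and 5 counts, against 6.66 and 6.99 CPM in controls. At day 4 it had 1.72 and 2.29 CPM in irradiated organoids, against 9.54 and 5.49 CPM in controls. Irradiated libraries lay below all controls, and those of day 7 below those of day 4. Over both libraries, 9 counts in irradiated organoids at day 7 against 138 in controls gave a level 13.8-fold lower, with a 95% counting interval of 7.04 to 30.7, which covers counting error only. The log2 fold change was -3.75 (SE 0.434, edgeR adjusted p = 0.00131) at day 7 and -1.89 (SE 0.3385, adjusted p = 0.00181) at day 4, and both calls were kept without each library in turn. Fars2 lies on the opposite strand over Nrn1, and the strand setting of the counting is not given in the sources used here. Fars2 itself lay between 16.8 and 20.5 CPM in all libraries and was not called, with log2 fold changes of 0.03 (adjusted p = 0.922) at day 7 and -0.20 (adjusted p = 0.241) at day 4.

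Olfm4 (ENSMUSG00000022026), a secreted glycoprotein abundant in crypt base cells, had 865 and 829 CPM in irradiated organoids at day 7, against 1615 and 1558 CPM in controls. At day 4 it had 250.5 and 423.5 CPM in irradiated organoids, against 693 and 723 CPM in controls. Irradiated libraries lay below the controls of their day at both times, and the irradiated pair of day 4 was the widest apart. For Olfm4 the log2 fold change was -0.91 (SE 0.209, edgeR adjusted p = 0.0421) at day 7 and -1.07 (SE 0.211, adjusted p = 0.00660) at day 4. The call at day 7 held without either irradiated library of day 4 and was lost without any of the other 6 libraries (control day 4 replicates 1 and 2, control day 7 replicates 1 and 2, irradiated day 7 replicates 1 and 2; adjusted p = 0.0804 to 0.245). The call at day 4 was lost without control day 4 replicate 2 (adjusted p = 0.0520).

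Smoc2 (ENSMUSG00000023886) is a secreted calcium-binding protein of the matrix. Its level was 438 and 465 CPM in irradiated organoids at day 7, against 478 and 484 CPM in controls, and 269.7 and 201 CPM in irradiated organoids at day 4, against 349 and 333 CPM in controls. The day 4 pairs did not overlap, while the day 7 pairs nearly touched. At day 4 Smoc2 fell by 0.53 on the log2 scale (SE 0.121, edgeR adjusted p = 0.00652). That call was lost on log2(TPM + 1) values with no filter (limma, adjusted p = 0.106). At day 7 the log2 fold change was -0.09 (95% interval -0.36 to 0.17, adjusted p = 0.684).

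Igfbp4 (ENSMUSG00000017493), a secreted binding protein of insulin-like growth factors, was called at neither day. It had 20.5 and 18.7 CPM in irradiated organoids at day 7, against 14.9 and 18.02 CPM in controls, and 18.8 and 20.5 CPM in irradiated organoids at day 4, against 13.3 and 19.6 CPM in controls. Libraries of both arms at day 4 overlapped. The log2 fold change was 0.25 at both days, with 95% intervals of -0.17 to 0.67 at day 7 (edgeR adjusted p = 0.455) and -0.17 to 0.66 at day 4 (adjusted p = 0.333). Without control day 4 replicate 2 the day 4 value was called (adjusted p = 0.0403). On log2(TPM + 1) values the day 4 change was -0.16, on a scale where the median gene moved by -0.17. The gene length implied by deposited count over TPM differed 1.40-fold between libraries for Igfbp4, more than for all but 10.1% of the 8013 genes in which it was computed.

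Ascl2 (ENSMUSG00000009248), the transcription factor, was also called at neither day. It had 12.7 and 12.99 CPM in irradiated organoids at day 7, against 9.23 and 8.74 CPM in controls. Ascl2 had 5.16 and 5.01 CPM in irradiated organoids at day 4, against 3.66 and 4.82 CPM in controls. Irradiated libraries lay above the controls of their own day, and every library of day 7 lay above every library of day 4. The log2 fold change was 0.51 (95% interval 0.09 to 0.93, edgeR adjusted p = 0.120) at day 7 and 0.25 (95% interval -0.22 to 0.72, adjusted p = 0.397) at day 4. In a fit of only the groups compared, the day 7 value was called (adjusted p = 0.00952).

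**Figure D2:**
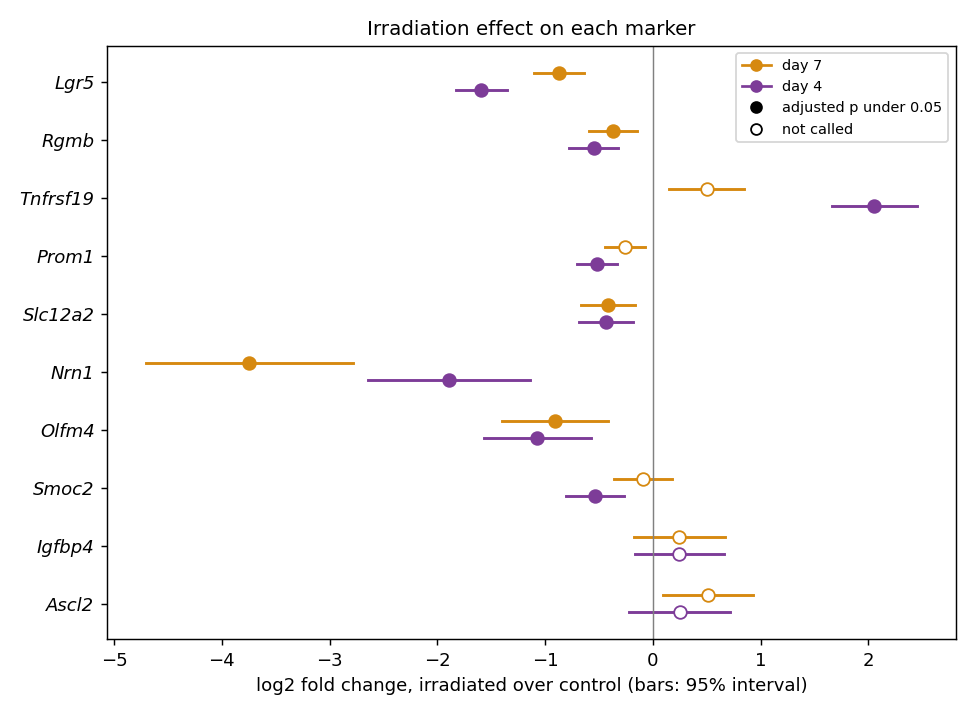
Log2 fold change of each marker, irradiated over control (x axis; bars are 95% intervals from edgeR), at day 7 (upper mark) and day 4 (lower mark); filled marks had an adjusted p under 0.05. Tnfrsf19 at day 4 (2.06) is the filled mark right of 0, and Nrn1 at day 7 (-3.75) lies farthest left.

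Whether the effect of irradiation differed between the days was tested as the difference of the log2 fold changes, day 7 minus day 4. The difference was called for 2 of the 10 markers, Lgr5 and Tnfrsf19, and for 10.1% of all genes. Lgr5 was the marker with a higher and Tnfrsf19 the marker with a lower value, and 4.60% of all genes were called higher and 5.51% lower. For Lgr5 the effect was smaller in size at day 7 (-0.87) than at day 4 (-1.59), a difference of 0.72 (SE 0.148, edgeR adjusted p = 0.0162). Leaving out control day 7 replicate 1 or 2, or irradiated day 7 replicate 1 or 2, ended that call (adjusted p = 0.0776 to 0.0868). For Tnfrsf19 the effect was 0.50 at day 7 and 2.06 at day 4, a difference of -1.56 (SE 0.239, adjusted p = 0.00525), which was called without each library in turn. Both differences kept their sign on log2(TPM + 1) values but were not called there (Lgr5 1.01, adjusted p = 0.0638; Tnfrsf19 -0.90, adjusted p = 0.140). For Nrn1 the effect at day 7 was larger in size by 1.86, but the 95% interval of -3.16 to -0.56 came with an adjusted p of 0.0712. Calls were gained for Nrn1 without control day 4 replicate 1 (adjusted p = 0.0236) or irradiated day 4 replicate 1 (0.0472), for Smoc2 and Prom1 without irradiated day 4 replicate 1 (7.41e-04 and 0.0250) and for Olfm4 without irradiated day 4 replicate 2 (0.00308). For Slc12a2 the difference was 0.02 (95% interval -0.33 to 0.37), and for Olfm4 it was 0.17 (95% interval -0.52 to 0.86).

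In irradiated organoids, 6 of the 10 markers were higher at day 7 than at day 4 and Nrn1 was lower, while 33.0% of all genes were called (14.7% higher and 18.3% lower). The libraries of both days did not overlap for 8 of the 10 markers, and for 69.7% of all genes. Among the markers that rose, the log2 fold change was 1.33 for Olfm4 (edgeR adjusted p = 0.00353) and for Ascl2 (adjusted p = 0.00110), 0.94 for Smoc2 (adjusted p = 5.52e-04), 0.90 for Rgmb (adjusted p = 2.92e-04), 0.71 for Lgr5 (adjusted p = 0.00101) and 0.27 for Prom1 (adjusted p = 0.0300). Nrn1 fell by 1.98 (SE 0.501, adjusted p = 0.0131). The call of Nrn1 was lost without irradiated day 4 replicate 2 or either irradiated library of day 7 (adjusted p = 0.0564 to 0.109), and that of Prom1 was lost without either library of control day 7 or irradiated day 7 or without irradiated day 4 replicate 2 (adjusted p = 0.0577 to 0.121). Tnfrsf19 had a log2 fold change of 0.45 (95% interval 0.10 to 0.80, adjusted p = 0.0514), which was called without control day 4 replicate 1 (adjusted p = 0.0108) or replicate 2 (0.0114), with a replicate block, with DESeq2's size factors, without a count filter, with only the groups compared and on log2(TPM + 1) and log2(TPM + 0.1) values. Slc12a2 (0.12, adjusted p = 0.450) was called without irradiated day 4 replicate 1 (adjusted p = 0.0380). Irradiated libraries of day 4 also enter the comparison with the controls of day 4. In the same comparison, day 7 against day 4 in irradiated organoids, 11 of 12 proliferation genes were higher, while 10 of 10 enterocyte, 6 of 12 Paneth, 6 of 8 goblet and 7 of 8 enteroendocrine genes were lower. Without irradiated day 7 replicate 1 or 2, 6 enterocyte genes were lower. The enteroendocrine sum was 535 CPM in both irradiated libraries of day 7, against 2548 to 2730 CPM at day 4. Most of it was Chgb, with 393 and 385 CPM at day 7 and 2053 and 2236 CPM at day 4. The part of these cell types in the markers' values was not tested.

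In controls, Tnfrsf19, Olfm4, Ascl2 and Rgmb were higher at day 7 than at day 4 and 0 of the 10 markers were lower, while 2.72% of all genes were called (1.25% higher and 1.46% lower). Libraries of both days did not overlap for 5 of the 10, and for 52.5% of all genes. At an unadjusted p under 0.05, 5 markers were higher and 0 lower in edgeR, and DESeq2 called 4 higher and 0 lower, with Smoc2 in the place of Ascl2. Tnfrsf19 had the largest change, 4.02-fold (log2 fold change 2.01, SE 0.178, edgeR adjusted p = 8.98e-04). The log2 fold changes were 1.17 for Olfm4 (adjusted p = 0.0375), 1.07 for Ascl2 (adjusted p = 0.0248) and 0.72 for Rgmb (adjusted p = 0.00687). Olfm4 lost its call without any library other than the irradiated ones of day 4 (adjusted p = 0.0934 to 0.234), Ascl2 without any library of day 7 (adjusted p = 0.0794 to 0.210), and Rgmb without control day 7 replicate 1 or 2 (adjusted p = 0.0955 and 0.113). Smoc2 (0.50, adjusted p = 0.0584) was called without irradiated day 4 replicate 1 (6.29e-04) or replicate 2 (5.78e-04). The control libraries of Lgr5 overlapped between the days, with a log2 fold change of -0.01 (95% interval -0.24 to 0.22, adjusted p = 0.967). They also overlapped for Prom1 (0.01, 95% interval -0.17 to 0.20) and Slc12a2 (0.10, 95% interval -0.15 to 0.35). Of the other cell types in controls, 4 of 8 enteroendocrine and 4 of 8 goblet genes were lower at day 7. The enteroendocrine sum was 628 to 632 CPM at day 7, against 1423 to 2489 CPM at day 4. Most of it was Chgb, with 496 and 494 CPM at day 7 and 2074 and 1151 CPM at day 4. The goblet sum was 1300 to 1355 CPM at day 7, against 1966 to 2317 CPM at day 4. Without control day 7 replicate 1 or 2, 2 and 1 enteroendocrine genes and 1 and 0 goblet genes were lower. The goblet count was 2 without control day 4 replicate 1 or 2 and 1 without irradiated day 7 replicate 1 or 2. Their part in the markers' values was not tested.

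**Figure D3:**
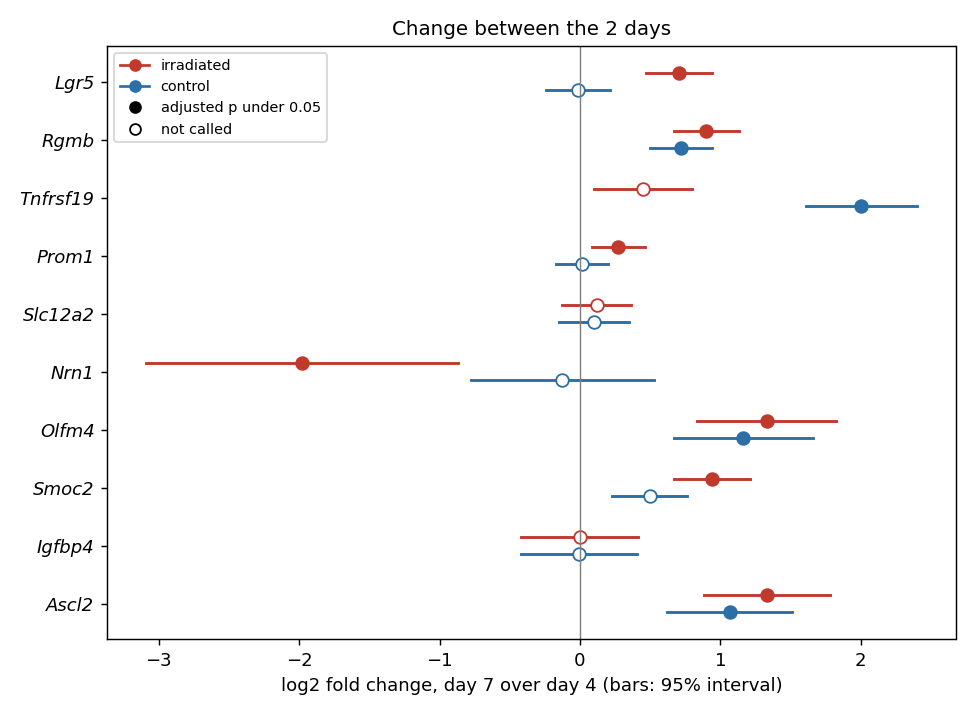
Log2 fold change of each marker, day 7 over day 4 (x axis; bars are 95% intervals from edgeR), in irradiated (upper mark) and control organoids (lower mark); filled marks had an adjusted p under 0.05. Tnfrsf19 is far right of 0 in controls (2.01) and Nrn1 far left of 0 in irradiated organoids (-1.98).

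Levels of different genes were set against each other in TPM, which divides by transcript length. In irradiated organoids at day 7 the order was Olfm4 (mean 465 TPM), Smoc2 (259), Slc12a2 (245), Prom1 (122), Lgr5 (102), Rgmb (53.3), Igfbp4 (15.0), Tnfrsf19 (13.6), Ascl2 (12.5) and Nrn1 (0.575), and of the neighbours in that order the libraries of Smoc2 and Slc12a2 overlapped. Controls at day 7 ran from Olfm4 (787 TPM) over Slc12a2 (296), Smoc2 (268), Lgr5 (172.5), Prom1 (133) and Rgmb (64.9) to Igfbp4 (10.7), Tnfrsf19 (8.66), Ascl2 (7.94) and Nrn1 (6.50), with no overlap between neighbours. In irradiated organoids at day 4, Slc12a2 (174 TPM), Olfm4 (137), Smoc2 (113) and Prom1 (78.0) led. Neighbours among them overlapped, and Prom1 did not overlap Lgr5, the next gene. Controls at day 4 were led by Olfm4 (340.0 TPM), and Tnfrsf19 (2.09 TPM) was last there and there alone.

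Between some of the markers, but not all, the balance differed between irradiated and control organoids. Olfm4 made up 36.5% and 35.8% of the 10 markers' summed TPM in irradiated organoids at day 7, against 45.1% and 44.6% in controls. Its share at day 4 was 17.7% and 29.3% in irradiated organoids, against 28.7% and 30.7% in controls, so the libraries of that day overlapped. The ratio of Ascl2 to Lgr5 TPM was 0.121 and 0.126 in irradiated organoids at day 7, against 0.0468 and 0.0452 in controls, and 0.0853 and 0.0770 in irradiated organoids at day 4, against 0.0204 and 0.0227 in controls. Irradiated libraries lay above all control libraries in that ratio. The ratio of Lgr5 to Olfm4 TPM overlapped at day 7, with 0.216 and 0.222 in irradiated organoids, against 0.2175 and 0.221 in controls. At day 4 the ratio of Lgr5 to Olfm4 was 0.430 and 0.298 in irradiated organoids, against 0.462 and 0.523 in controls. The summed CPM of the 10 markers was 3062 to 3171 in irradiated organoids at day 7, against 4510 to 4620 in controls, and 2015 to 2108 in irradiated organoids at day 4, against 3308 to 3386 in controls.

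**Figure D4:**
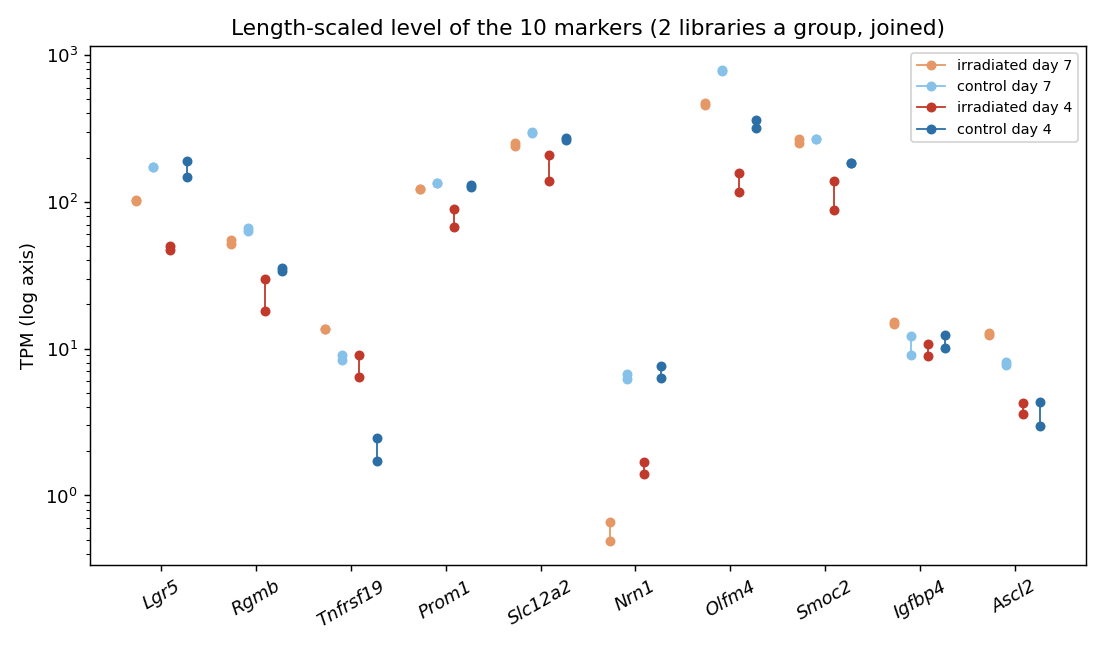
TPM of each marker (y axis, log scale) in the 2 libraries of each group (points, joined by a line), irradiated left of control at day 7 and day 4. Nrn1 falls below 1 TPM in irradiated organoids at day 7, and Tnfrsf19 is lowest in controls of day 4.

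Genes of the R-spondin and Wnt pathway, in which Lgr5 acts, were called in both directions at day 4, as were genes in general. Of all genes, 20.0% were called higher and 16.5% lower at that day. Of 14 tested, 0 were called at day 7 by edgeR (0 higher and 2 lower at an unadjusted p under 0.05, 0 by DESeq2), and at day 4 Rnf43, Nkd1, Sp5 and Apcdd1 were higher while Znrf3, Lrp6, Fzd5 and Fzd7 were lower. The feedback inhibitor Nkd1 rose by 1.28 on the log2 scale at day 4 (edgeR adjusted p = 0.0182), a call lost without control day 4 replicate 2 (0.127) or irradiated day 4 replicate 1 (0.138). The Wnt target Sp5 rose by 1.66 (adjusted p = 0.00178). The Wnt receptor Fzd5 fell by 0.74. The day 4 calls of Rnf43, Znrf3 and Fzd7 were lost with DESeq2's test and on log2(TPM + 1) values. Those of Nkd1, Lrp6 and Apcdd1 were lost on log2(TPM + 1) values. Axin2, a widely used Wnt target, had a log2 fold change of 0.06 at day 4, and the R-spondin receptor Lgr4 had -0.04, neither called, and both changed sign under other settings. Without control day 4 replicate 2, 2 genes of this list were higher and 1 lower at day 4, and without irradiated day 4 replicate 1, 2 were higher.

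Among 24 other genes of the stem cell signature, Msi1 was higher and Cdk6 lower at day 7, and 7 were higher and 7 lower at day 4 (4 higher without irradiated day 4 replicate 1). The 2 calls at day 7 (Msi1 0.60, edgeR adjusted p = 0.0456; Cdk6 -0.46, adjusted p = 0.0139) were lost without control day 7 replicate 1 or 2 or irradiated day 7 replicate 1 or 2, and that of Msi1 also with a replicate block and with DESeq2. The adhesion receptor Cd44 rose by 1.23 (edgeR adjusted p = 5.33e-05) and the water channel Aqp4 fell by 1.07 (adjusted p = 4.85e-05) at day 4. The lists overlap: Axin2, Lgr4, Znrf3 and Rnf43 are also in the R-spondin and Wnt list, and Lrig1 and Mex3a are also among the reserve genes below. Of all genes, 4.70% were called higher and 3.95% lower at day 7, and 20.0% and 16.5% at day 4. Of 6 genes proposed for reserve or injury-responsive stem cells, 0 were called at day 7 (1 higher and 2 lower at an unadjusted p under 0.05, and 1 higher and 0 lower by DESeq2), and Clu and Bmi1 were higher and Lrig1 and Mex3a lower at day 4. Clu, a marker of revival stem cells, had 114 and 113 CPM in irradiated organoids at day 7, against 28.1 and 29.8 CPM in controls, and 184 and 82.7 CPM in irradiated organoids at day 4, against 11.1 and 3.66 CPM in controls. Both irradiated pairs lay above all controls. Its log2 fold change was 1.97 at day 7 (adjusted p = 0.112) and 4.25 at day 4 (adjusted p = 0.00741). The call of Bmi1 at day 4 (0.31, adjusted p = 0.0452) was lost in 13 of 18 alternatives, among them those without control day 4 replicate 2 (adjusted p = 0.247), without either library of day 7 in either arm, and without either irradiated library of day 4. The day 4 call of Clu was lost with only the groups compared (adjusted p = 0.0767), where its day 7 value was called (3.80e-22).

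Markers of the other cell types moved beside the stem cell markers, and their part in the values above was not tested. Of all genes, 4.70% were called higher and 3.95% lower at day 7, and 20.0% and 16.5% at day 4. Of 10 enterocyte genes, 2 were higher at day 7 and 10 at day 4. The day 7 count was 0 without control day 7 replicate 1 or 2 or irradiated day 7 replicate 2, 1 without irradiated day 7 replicate 1, 7 without irradiated day 4 replicate 1 or 2, and 6 with DESeq2. Their summed CPM was 6220 to 6259 in irradiated organoids at day 7, against 3934 to 4013 in controls, and 13600 to 22530 in irradiated organoids at day 4, against 4007 to 4426 in controls. Of 12 Paneth cell genes, 0 were called at day 7 (1 higher and 0 lower at an unadjusted p under 0.05, 0 by DESeq2) and 9 were higher at day 4 (5 without irradiated day 4 replicate 1), with a summed CPM of 3697 to 4771 in irradiated organoids against 836 to 1382 in controls. The Paneth sum at day 7 was 1362 to 1381 CPM in irradiated organoids, against 1637 to 1672 CPM in controls. Of 8 goblet cell genes, 2 were higher and 2 lower at day 7, and 3 higher and 2 lower at day 4. DESeq2 called 2 higher and 4 lower at day 7. The goblet sum was 867 to 923 CPM in irradiated organoids at day 7, against 1300 to 1355 CPM in controls. At day 4 it was 1890 to 2220 CPM, against 1966 to 2317 CPM in controls. The goblet cell gene Zg16 rose by 2.78 at day 7 and by 3.94 at day 4, while Agr2 fell by 0.88 and by 0.77. Of 8 enteroendocrine genes, 1 was higher and 1 lower at day 7, and 2 were higher at day 4 (5 higher without control day 4 replicate 1 and 1 without control day 4 replicate 2). Tuft cell genes were rare: their summed CPM was 4.57 to 5.82 in irradiated organoids at day 7, against 7.72 to 8.91 in controls, and 3.44 to 4.68 in irradiated organoids at day 4, against 17.1 to 17.6 in controls, and 5 of 5 tested were lower at day 4 (3 without irradiated day 4 replicate 1). Of 12 proliferation genes, 2 were lower at day 7 (0 without control day 7 replicate 1 or 2 or irradiated day 7 replicate 1 or 2, and 0 on TPM values) and 9 at day 4, with a summed CPM of 2148 to 2161 in irradiated organoids at day 7, against 2395 to 2418 in controls, and 1292 to 1557 in irradiated organoids at day 4, against 2541 to 2671 in controls. Mki67, a marker of dividing cells, fell by 1.14 at day 4 (edgeR adjusted p = 1.54e-05). The 3 immune genes tested were higher at day 4 (2 with DESeq2 and 2 with only the groups compared), at low levels. At that day Csf1r averaged 1.73 CPM in irradiated organoids and 0.0731 CPM in controls.

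**Figure D5:**
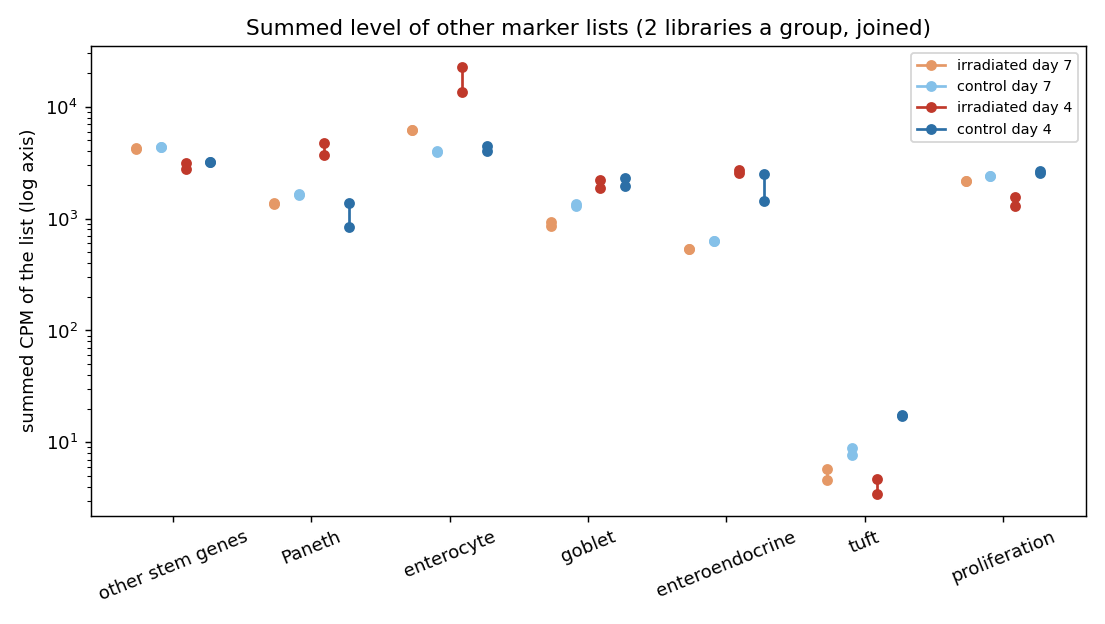
Summed TMM-scaled CPM of each marker list (y axis, log scale) in the 2 libraries of each group (points, joined by a line), irradiated left of control at day 7 and day 4. Across the 4 groups, the enterocyte and Paneth sums are highest, and the proliferation sum lowest, in irradiated organoids of day 4.

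Genes with the most similar pattern over the 8 libraries were ranked by Pearson's r of log2 CPM among 9966 genes, as a description, since the libraries fall into 4 groups. The closest to Lgr5 was Npc2 (r = 0.993), the closest to Tnfrsf19 was Dctn1 (0.987), the closest to Olfm4 was Soat1 (0.980) and the closest to Ascl2 was Prdx2 (0.980). For the other markers the closest were Tedc1 (Smoc2, 0.992), Wasf1 (Rgmb, 0.994), Furin (Igfbp4, 0.949), Atm (Slc12a2, 0.982), Sos2 (Nrn1, 0.991) and Supt16 (Prom1, 0.995).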

How the data were processed

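Poly-A RNA from 8 libraries of mouse small intestinal organoids was made into stranded libraries, per the labels' protocols. The submitters' processing notes name STAR 2.7.3a, RSEM 1.3.3, Trim Galore and FastQC, and the builds GRCm39 and mm10, without roles. Expected counts and TPM per gene are as the authors deposited them. Expected counts were rounded, which changed 11.4% of values. Genes passed edgeR's filter by group (10 counts, total 15). edgeR 4.0.16 in R 4.3.3 fitted 4 group means over all 8 libraries with TMM scaling and a robust quasi-likelihood test, adjusted over 14063 genes at 0.05. SE is the size of the log2 fold change divided by the root of F. limma 3.58.1 tested log2(TPM + 1), and DESeq2 1.42.0 was an alternative, as were other filters, scalings, fits of only the groups compared, a replicate block and each library left out. Scripts were tested on simulated data. All 10 markers are named, each with its most similar gene, and any gene of the reserve stem and R-spondin lists could be named. For each other list the rule picked the called gene of smallest p in each direction. Values of Itln1, Apob, Alpi, Cck, Avil and Cenpf, which this rule also picked, are not given. Outside the rule, Epcam, Krt8, Krt18 and Chgb were named after their values were seen, and Adgre1, Cdh5, Kdr, Itgam and Pdgfrb for their counts. Members, lists and tests were chosen with earlier results of these data known. Gene names come from GENCODE and promoters from RefSeq.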

Additional observations from a re-analysis of the deposited data

Results flagged for a closer look

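The effect of irradiation on Lgr5 and on Tnfrsf19 differed between the days by a test of the difference itself (edgeR, adjusted over all genes). For Lgr5 the log2 fold change at day 7 minus that at day 4 was 0.72, with a 95% interval of 0.39 to 1.05 (adjusted p = 0.0162), and irradiated organoids were closer to their controls at day 7. For Tnfrsf19 the difference was -1.56, with a 95% interval of -2.09 to -1.03 (adjusted p = 0.00525). Neither difference was called in the fits on TPM values, and that of Lgr5 was lost when any single library of day 7 was left out. Tnfrsf19 averaged 35.4 CPM in irradiated organoids at day 7, against 25.0 CPM in controls, and 25.9 CPM in irradiated organoids at day 4, against 6.33 CPM in controls.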

How the results depend on the processing

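Over the 10 markers and 5 comparisons, 743 of 890 values under an alternative kept their direction and side of the threshold, 108 crossed the threshold, and 39 changed sign, 0 of which were called in either fit. The counts of markers called (with all genes in brackets) moved by over 1.5 times as follows. For irradiation at day 7 (5 markers, 1216 genes) they were 2 (328) on log2(TPM + 1), 2 (311) on log2(TPM + 0.1), 1 (100) on log2(TPM + 1) with no filter and 8 (4747) with only the groups compared, and without a count filter 2044 genes were called. At day 4 (8 markers, 5130 genes) the 3 TPM fits called 2686, 2598 and 1488 genes, the last with 5 markers, and only the groups compared gave 3158 genes. For the difference between days (2 markers, 1422 genes), no count filter gave 4 (2456), and the 3 TPM fits gave 0 (179), 0 (144) and 0 (2). For day 7 against day 4 in irradiated organoids (7 markers, 4639 genes), TPM with no filter gave 1569 genes. In controls (4 markers, 382 genes), no count filter gave 1217 genes, the 3 TPM fits gave 2 (40), 2 (35) and 0 (25), and only the groups compared gave 628 genes. The cause was not tested. Of the other lists at day 4, TPM with no filter called 5 Paneth genes higher and 4 proliferation genes lower.

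Leaving out mitochondrial genes, chosen after seeing the data, called 5 markers at day 7 and 8 at day 4. Leaving out each library in turn called 1 to 7 markers (98 to 2350 genes) at day 7, 7 to 8 (3873 to 5042) at day 4, 1 to 5 (239 to 2749) for the difference, 5 to 8 (2113 to 5251) between days in irradiated organoids and 1 to 5 (11 to 1253) in controls. Libraries of the same replicate number showed little shared deviation from their group means (correlations -0.035 to 0.058). This cannot tell whether they came from the same culture or mouse. A replicate block gave 5 markers (1245 genes) at day 7, 8 (5153) at day 4, 2 (1443) for the difference, 8 (4643) and 4 (473) between days. The 4 and 5 counts of Nrn1 in irradiated organoids at day 7 limit its precision.

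The sign changes were these. Igfbp4 at day 4 (0.25) was -0.16, -0.18 and -0.16 on log2(TPM + 1), on log2(TPM + 0.1) and on log2(TPM + 1) with no filter. Its difference between days (0.0018) was -0.037 with at least 5 CPM in 2 libraries and -0.00014 without mitochondrial genes, and its change between days in irradiated organoids (-0.0027) was 0.0025 with DESeq2 size factors, 0.073 with no count filter, 0.0018 with DESeq2, 0.57, 0.61 and 0.57 in the TPM fits, 0.0063 with a replicate block and 0.031 with only the groups compared. In controls Igfbp4 (-0.0045) was 0.0040 with a replicate block, Lgr5 (-0.01) was 0.0499, 0.0502 and 0.0499 in the TPM fits, and Prom1 (0.01) was -0.0072 with no count filter. The difference of Slc12a2 (0.02) was -0.021 with at least 5 CPM. Leaving out each library gave -0.16 to 0.59 for the difference of Olfm4, -0.32 to 0.24 for that of Igfbp4 and -0.11 to 0.16 for that of Slc12a2. Between days it gave -0.062 to 0.096 for Igfbp4 and -0.0099 to 0.26 for Slc12a2 in irradiated organoids, and -0.13 to 0.12 for Lgr5, -0.24 to 0.31 for Igfbp4, -0.48 to 0.31 for Nrn1 and -0.018 to 0.045 for Prom1 in controls. Of the list genes, 42 values changed sign, with 0 called in either fit. In the 3 TPM fits at day 7 Axin2 was 0.21, 0.22 and 0.21, Tcf7 0.0072, 0.0077 and 0.0072, Lrp5 0.027, 0.028 and 0.027, and Cdx2 0.024, 0.024 and 0.024, and Lef1 was 0.042 with no filter. In those at day 4 Hopx was -0.051, -0.052 and -0.051, Axin2 -0.099, -0.10 and -0.099, Tcf7 -0.13, -0.15 and -0.13, and Lef1 was -0.19 with no filter. With no count filter Axin2 was 0.028 at day 7 and Tcf7 -0.0090 at day 4. Leaving out each library gave, at day 7, -0.10 to 0.051 for Bmi1, -0.089 to 0.029 for Axin2, -1.17 to 0.90 for Lef1 and -0.51 to 1.33 for Egfl7. At day 4 it gave -0.14 to 0.23 for Axin2, -0.067 to 0.16 for Tcf7, -0.29 to 0.14 for Lrp5, -0.14 to 0.060 for Lgr4, -0.19 to 0.024 for Cdk6 and -0.34 to 0.12 for Neurod1.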
